A study of Homo sapiens with 4 samples.

Results

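FAT10 and ISG15 are ubiquitin-like modifiers, small proteins that cells attach to other proteins, and the genes for them and for the enzymes that handle them were examined in Caco-2 cells before and after stimulation with interferon gamma (IFNγ). The members were listed by symbol and matched through their Ensembl identifiers. All 9 had a row among the 37515 genes of the count table. For FAT10 these were UBD, which encodes the modifier, UBA6 and UBE2Z. For ISG15 these were ISG15 itself, UBA7, UBE2L6, HERC5, HERC6 and USP18. After a filter on low counts 8 of the 9 were tested, among 14820 genes in all, and HERC5 was not.

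Caco-2 cells derive from a human colorectal carcinoma and serve as a stand-in for intestinal epithelium. The cells, titled WT in the labels, had grown in transwells for 15 days, and 60 ng/ml IFNγ was then given on the basal side. RNA was sequenced from 2 libraries of unstimulated cells at 0 h, which received medium, and from 2 libraries of cells after 3 h of IFNγ. The 3 h libraries therefore differed from the 0 h libraries in both IFNγ and elapsed time, and the contributions of the 2 cannot be told apart. The labels do not say whether replicates came from separate cultures, so p-values measure the spread between these libraries, which may be technical.

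As background, a ubiquitin-like modifier is activated by an E1 enzyme, handed to an E2 enzyme and joined to its target with the help of an E3 ligase. FAT10 is induced in epithelial cells by IFNγ together with tumor necrosis factor, and proteins that carry it are degraded by the proteasome. UBA6 is its E1 and also activates ubiquitin, and UBE2Z is the E2 that works with UBA6. ISG15 is best known as an antiviral effector induced by type I interferon. UBA7 is its E1, UBE2L6 its main E2 and HERC5 its main E3 ligase in human cells, and USP18 removes it again.

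The libraries held 7171455 to 10365346 counts, so that 1 count stood for 0.0973 to 0.140 CPM (counts per 1e6 counts of the library) after TMM scaling, the unit of all levels below. Genes that are commonly induced by IFNγ served as a check on the labels. Of these 10 of 11 tested were called higher, among them IRF1, against 2.88% of all tested genes. Some of the 10, including GBP4, GBP5 and NLRC5, passed the filter on low counts through their IFNγ libraries alone. The list was also chosen with earlier results of these data known, so this count is a description. Of 18 intestinal epithelial markers 17 were tested, with summed levels of 12131 to 12966 CPM at 0 h and 13479 to 14319 CPM after IFNγ. Among them CDX2, an intestinal transcription factor, was called higher at a log2 fold change of 1.20 and SI, the sucrase-isomaltase of the brush border, was called lower at -1.13, and the 2 values were 0.98 and -0.69 with the trend on GC content and gene length removed, an alternative described with UBA6. Of 15 immune markers with a row 4 were tested, with summed levels of 16.3 to 17.4 CPM at 0 h and 21.2 to 24.6 CPM after IFNγ, and SPI1 was at 0 in every library. The 10 stromal and endothelial markers with a row summed to 105 to 200 CPM at 0 h and to 140 to 181 CPM after IFNγ. Of these 5 were tested, THY1 and KDR were at 0 in every library, and the largest count of any marker in a library was 1842. The sum therefore does not describe each marker. Fewer cells of a type and less RNA per cell cannot be told apart in bulk libraries such as these, which bears on every level given here.

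To show the DNA just upstream of genes with different results, the 250 bases before the annotated start are given. They cover UBD and UBE2L6, the members called higher, and UBA6, the member called lower. Also given are ISG15, which was not called, and HERC5, which had too few counts to be tested. ISG15 and HERC5 carry interferon-type letters. Sequences are from RefSeq on GRCh38.p14, and 7 of the 9 members had an entry. Each is written 5′ to 3′ along the strand of its gene, and capitals mark the letters of a motif searched on both strands. The motifs were GAAANNGAAA, the core of an interferon-stimulated response element (ISRE), TTCNNNGAA, the letters of an IFNγ-activated site (GAS), and GGGNNTTTCC, the letters of a kappaB site.
UBD, chr6:29559733-29559982, minus strand: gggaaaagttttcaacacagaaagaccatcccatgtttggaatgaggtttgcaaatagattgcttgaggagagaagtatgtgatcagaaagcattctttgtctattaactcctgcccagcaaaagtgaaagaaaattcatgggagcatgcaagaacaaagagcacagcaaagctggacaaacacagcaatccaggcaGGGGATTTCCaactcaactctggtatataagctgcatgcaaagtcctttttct
UBE2L6, chr11:57567936-57568185, minus strand: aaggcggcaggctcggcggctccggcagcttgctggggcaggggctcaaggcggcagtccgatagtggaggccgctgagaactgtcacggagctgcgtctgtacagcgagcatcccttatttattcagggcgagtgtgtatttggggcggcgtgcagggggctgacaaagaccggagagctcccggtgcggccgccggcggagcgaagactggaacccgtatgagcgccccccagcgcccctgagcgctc
UBA6, chr4:67701156-67701405, minus strand: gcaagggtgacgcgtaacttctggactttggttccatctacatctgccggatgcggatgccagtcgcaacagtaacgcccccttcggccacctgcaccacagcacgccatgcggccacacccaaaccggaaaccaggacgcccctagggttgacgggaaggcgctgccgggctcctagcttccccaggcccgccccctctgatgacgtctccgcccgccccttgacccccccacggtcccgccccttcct
ISG15, chr1:1013247-1013496, plus strand: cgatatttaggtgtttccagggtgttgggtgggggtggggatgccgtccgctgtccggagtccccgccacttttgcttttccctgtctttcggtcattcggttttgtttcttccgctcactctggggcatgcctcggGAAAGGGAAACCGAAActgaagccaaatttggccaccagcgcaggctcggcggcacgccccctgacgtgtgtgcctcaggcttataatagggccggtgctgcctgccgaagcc
HERC5, chr4:88456869-88457118, plus strand: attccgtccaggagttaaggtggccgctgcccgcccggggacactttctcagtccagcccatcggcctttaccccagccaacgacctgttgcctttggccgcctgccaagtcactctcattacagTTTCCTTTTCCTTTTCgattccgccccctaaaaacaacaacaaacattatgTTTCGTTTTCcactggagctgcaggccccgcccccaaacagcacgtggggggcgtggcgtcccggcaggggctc

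The UBD window held 1 kappaB match, GGGGATTTCC, from 53 to 44 bases before the start, and contained 0 CpG dinucleotides against a median of 11 over all 35116 windows. The ISG15 window held 2 overlapping ISRE matches, GAAAGGGAAA at 113 to 104 bases and GAAACCGAAA at 107 to 98 bases before the start. HERC5 held 3 ISRE matches on the opposite strand, of which the first and second overlapped. Of all windows 3.02% held an ISRE match, 6.57% a GAS match and 1.73% a kappaB match. The UBE2L6 and UBA6 windows held none of the 3 motifs, and the same was found for UBE2Z and HERC6. A match is a stretch of letters and not a measured binding site, and the absence of a match applies to this window alone.

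After 3 h of IFNγ, UBD appeared from 0 counts, UBE2L6 was 3.05-fold higher and UBA6, with no correction for GC content, was 2.04-fold lower. A gene was called when the Benjamini-Hochberg adjusted p of edgeR's quasi-likelihood test was under 0.05 and the absolute log2 fold change was above 1. By this rule 2 of the 8 tested members were called higher and 1 was called lower. The same rule called 2.88% of all tested genes higher and 4.4% lower. The log2 fold change was positive in 7 of the 8, with a median of 0.60 against -0.01 over all tested genes. With no fold threshold 3 members had an adjusted p under 0.05 and a higher level, against 9.02% of all genes, and 1 had a lower level, against 11.0%. These counts describe the members only, since UBD passed the filter on low counts through its IFNγ libraries alone and so had to differ.

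The groups did not overlap in 7 of the 8 tested members. In 6 both IFNγ libraries lay above both 0 h libraries, which held for 31.6% of all tested genes, and in UBA6 both lay below, which held for 30.8%. UBD is among the 6 and passed the filter through its IFNγ libraries alone, so its separation was fixed in advance. With 2 libraries a group an exact permutation test cannot give a p below 0.333, so none was used. The plot of levels by library shows that the 2 libraries of a group lay close together in HERC6 after IFNγ. On the scale of each panel they were spread visibly in HERC5 in both groups and in UBA7, ISG15 and USP18 after IFNγ.

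**Figure D1:**
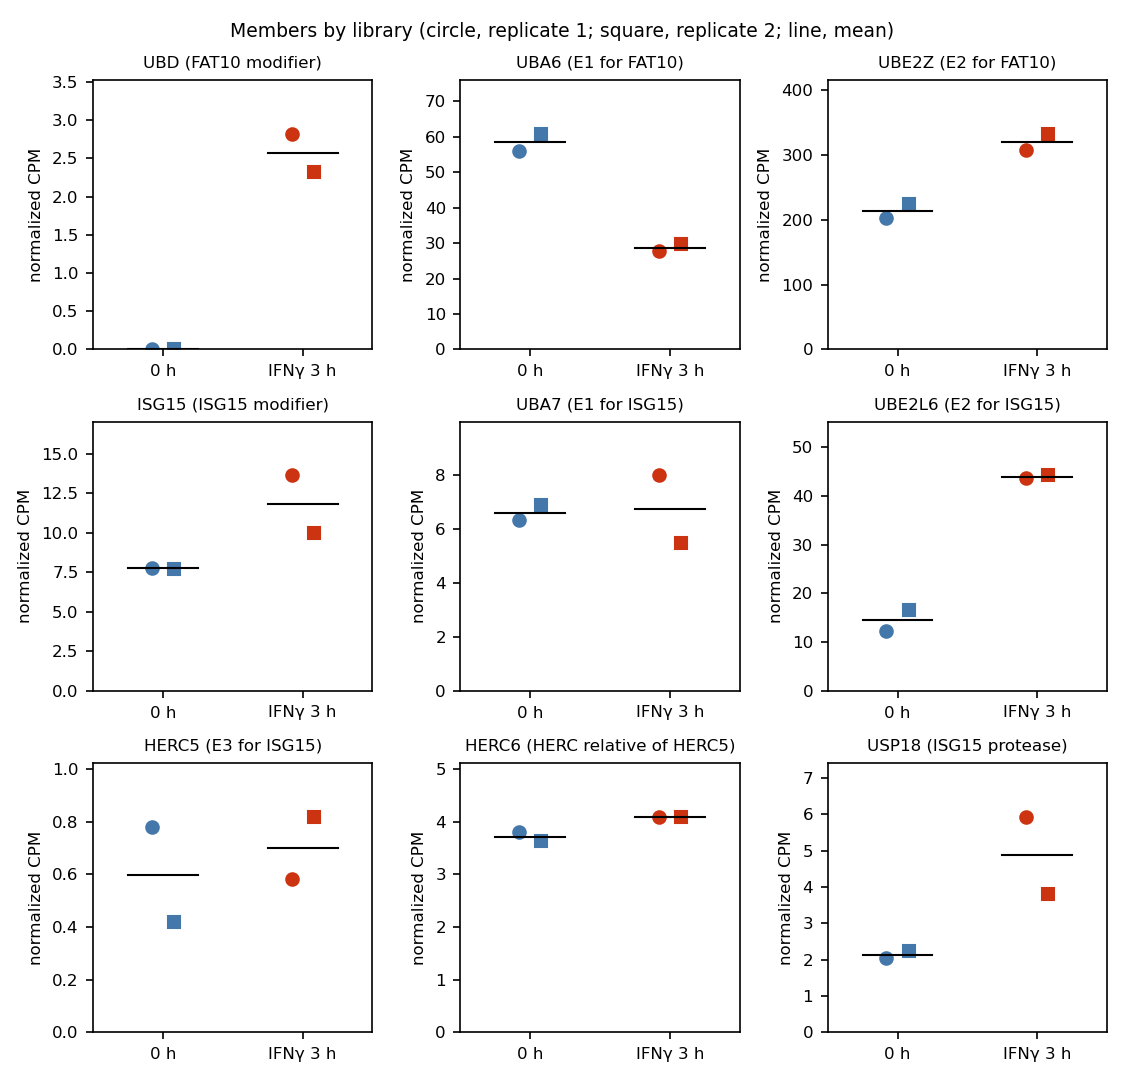
Level of each of the 9 members in each library in TMM-scaled CPM (vertical axis, from 0, with its own scale in each panel) in unstimulated cells (0 h, blue) and after 3 h of IFNγ (red), with circles for replicate 1, squares for replicate 2 and a line at the mean. UBD rose from 0, UBE2L6 from 12.4 and 16.7 to 43.6 and 44.2, UBA6 fell from 56.1 and 60.8 to 27.6 and 29.6, and the groups overlapped in UBA7 and HERC5.

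UBD (ENSG00000213886), the gene for FAT10, lies within the major histocompatibility complex region on chromosome 6, 29523292 to 29527509 on the minus strand of GRCh37, between the pseudogenes GPR53P and OR2H5P, both of which had 0 counts in every library. It had 0 counts in both 0 h libraries and 29 and 17 counts after IFNγ. As levels these were 0 and 0 CPM before and 2.82 and 2.32 CPM after, a mean of 2.57 ± 0.354 (SD, n = 2). All counts of the gene thus came from the stimulated libraries.

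Against 0 libraries a fitted fold change depends on the prior count, so a floor was set instead. The lower IFNγ library was 5.52-fold higher than 3 counts in the shallower 0 h library, the floor used for a count of 0. This floor corresponds to 0.420 CPM and covers counting error of the 0 h library only. The counting error of the IFNγ library is not included. The edgeR adjusted p was 0.00457. Under DESeq2 with its default filter on mean counts UBD received no adjusted p, and without that filter the DESeq2 adjusted p was 0.00089. The adjusted p lay between 9.91e-11 and 0.0396 over all alternatives that gave one. Since UBD could pass the filter only by differing between the groups, these values are a description and no independent support for its increase.

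The reads assigned to UBD came from a crowded place. OR2I1P, an olfactory receptor gene on the opposite strand, overlaps 836 bases or 93.5% of the annotated exons of UBD, and GABBR1, which encodes a subunit of the GABA-B receptor, overlaps 722 bases or 80.8% on the same strand. OR2I1P had 3 and 0 counts at 0 h and 109 and 78 counts after IFNγ, a pooled ratio of 61.6 with an exact conditional 95% interval of 20.8 to 301 that covers counting error only (edgeR adjusted p = 0.00128). GABBR1 had 125 and 40 counts at 0 h and 53 and 22 after IFNγ, with a log2 fold change of -1.12 and an edgeR adjusted p of 0.104. OR2I1P was thus called higher, whereas GABBR1 was not called. OR2I1P, like UBD, passed the filter on low counts through its IFNγ libraries alone. Its call is therefore a description and no independent support. How strand was treated in counting is not given in the sources used here, so reads from UBD and OR2I1P cannot be told apart. Reads in the exons shared with GABBR1 could not be assigned by strand in any case, and the level of UBD is uncertain for both reasons.

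UBA6 (ENSG00000033178; chromosome 4, 68478370 to 68566873, minus strand), the E1 for FAT10 and a second activating enzyme for ubiquitin, moved the other way. It had 56.1 and 60.8 CPM at 0 h and 27.6 and 29.6 CPM after IFNγ, from 576 and 434 counts and from 284 and 217 counts. Both stimulated libraries lay well below both unstimulated ones, with means of 58.4 ± 3.34 and 28.6 ± 1.40 CPM (SD, n = 2 each). The log2 fold change was -1.03 (SE 0.134, 95% interval -1.35 to -0.72, edgeR adjusted p = 0.00354).

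This call stood close to the fold threshold. Its value was -0.99 with upper quartile scaling, -0.99 without IFNγ replicate 1 and -0.96 without unstimulated replicate 2, and UBA6 was then not called. Over all tested genes with an annotated GC content the log2 fold change rose with GC content (Spearman rho = 0.431 across 14518 genes, which are not independent replicates), and the transcript of UBA6 has a GC content of 35.6%. With the trend on GC content and length removed, the log2 fold change of UBA6 was -0.35 (edgeR adjusted p = 0.144, with a range of 1.55e-07 to 0.144 over the alternatives that tested a difference from 0).

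UBE2Z (ENSG00000159202; chromosome 17, 46985769 to 47006418, plus strand), the E2 that receives FAT10 from UBA6, was the most abundant member, per length as well. Its levels were 203 and 224 CPM at 0 h and 308 and 332 CPM after IFNγ. The stimulated libraries were both higher, by a log2 fold change of 0.59 (SE 0.115, 95% interval 0.32 to 0.85, edgeR adjusted p = 0.0128). This difference passed the p threshold but not the fold threshold, and the adjusted p was 0.0665 without unstimulated replicate 1. Within the FAT10 branch the modifier was thus higher, the E1 lower and the E2 modestly higher in the main fit. With the GC and length trend removed the log2 fold change of the E1, UBA6, was -0.35 and it was not called.

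ISG15 (ENSG00000187608; chromosome 1, 936518 to 949920, plus strand) had 7.79 and 7.71 CPM at 0 h and 13.6 and 9.96 CPM after IFNγ, from 80, 55, 140 and 73 counts. The 0 h libraries were nearly equal, and the stimulated libraries were both higher but differed from each other by more than the lower of them differed from 0 h. The means were 7.75 ± 0.0595 and 11.8 ± 2.59 CPM (SD, n = 2 each). The log2 fold change was 0.61 (SE 0.229, 95% interval 0.08 to 1.15) with an edgeR adjusted p of 0.101, so ISG15 was not called. It moved to 0.35 without IFNγ replicate 1, to 0.79 without IFNγ replicate 2 and to 0.34 with the GC and length trend removed. In this fit the interval ended at 2.22-fold, below the 3.05-fold increase of UBE2L6. That limit depends on the fit, since the standard error was 0.379 under DESeq2.

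UBA7 (ENSG00000182179; chromosome 3, 49842642 to 49851386, minus strand), the E1 dedicated to ISG15, had 6.33 and 6.86 CPM at 0 h and 7.98 and 5.46 CPM after IFNγ. One stimulated library lay above and the other below both unstimulated libraries. The log2 fold change was 0.04 (SE 0.270, 95% interval -0.59 to 0.68, edgeR adjusted p = 0.927), and its sign turned with the processing. A change between 0.665-fold and 1.60-fold lies within that interval.

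UBE2L6 (ENSG00000156587; chromosome 11, 57319129 to 57335757, minus strand), the main E2 for ISG15, showed the clearest increase among members with counts in all libraries. It had 12.4 and 16.7 CPM at 0 h and 43.6 and 44.2 CPM after IFNγ, from 127, 119, 448 and 324 counts. The stimulated libraries were close together and far above the unstimulated ones, with means of 14.5 ± 3.04 and 43.9 ± 0.447 CPM (SD, n = 2 each). This gave a log2 fold change of 1.61 (SE 0.178, 95% interval 1.19 to 2.02) with an edgeR adjusted p of 0.00212. UBE2L6 was called under every scaling, filter and trend correction tried and without each library in turn, with log2 fold changes of 1.38 to 1.84. It was not called when the test was made against the fold threshold itself (edgeR's glmTreat, adjusted p = 0.100).

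HERC5 (ENSG00000138646; chromosome 4, 89378270 to 89427314, plus strand), the main ISG15 ligase, was barely detected. It had 8 and 3 counts at 0 h and 6 and 6 counts after IFNγ, or 0.779, 0.420, 0.584 and 0.819 CPM, and the groups overlapped. Pooled over libraries, the ratio of stimulated to unstimulated was 1.08 with an exact conditional 95% interval of 0.436 to 2.70, which covers counting error only. A change within this interval was not detectable at this depth. HERC6 (ENSG00000138642; chromosome 4, 89299891 to 89364249, plus strand), the neighboring relative of HERC5 that serves as the main ISG15 ligase in mice, had 3.80 and 3.64 CPM at 0 h and 4.09 and 4.09 CPM after IFNγ. The groups were separate but close, with a log2 fold change of 0.13 (SE 0.288, 95% interval -0.54 to 0.81, edgeR adjusted p = 0.776).

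USP18 (ENSG00000184979; chromosome 22, 18632885 to 18660164, plus strand) removes ISG15 from proteins and, apart from that activity, dampens signaling from the type I interferon receptor. It had 2.04 and 2.24 CPM at 0 h and 5.93 and 3.82 CPM after IFNγ, from 21, 16, 61 and 28 counts. Both stimulated libraries were higher, yet they differed from each other by more than the lower one differed from 0 h. The means were 2.14 ± 0.139 and 4.88 ± 1.49 CPM (SD, n = 2 each). The log2 fold change was 1.20 (SE 0.355, 95% interval 0.37 to 2.04), a 2.30-fold increase, with an edgeR adjusted p of 0.0523, so that USP18 missed the p threshold narrowly.

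The call of USP18 turned with the choice of processing. It was called with upper quartile scaling (edgeR adjusted p = 0.0434), with a minimum of 10 counts in every sample (0.0383), with no filter (0.00786), with the GC and length trend removed (0.0417) and without IFNγ replicate 2 (0.0166). It was not called without IFNγ replicate 1, where the log2 fold change was 0.83 (edgeR adjusted p = 0.289), without unstimulated replicate 1 (0.192) or 2 (0.0831), with scaling by library size only (0.0628) or by DESeq2 size factors in edgeR (0.0525), or with DESeq2 itself without its filter (0.197), and the adjusted p ranged from 0.00564 to 0.289 over the alternatives that tested a difference from 0. USP41, a near-identical copy of USP18, had at most 1 count in any library, and how reads that fit both genes were assigned is not known. The nearest neighbor, TUBA8, had at most 3 counts.

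**Figure D2:**
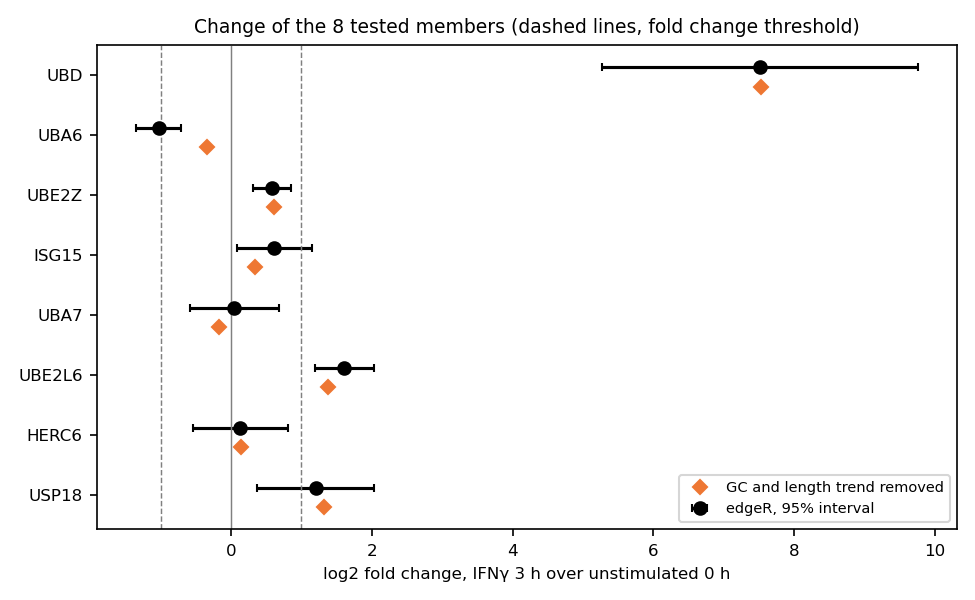
Log2 fold change of IFNγ at 3 h over unstimulated cells at 0 h (horizontal axis) for the 8 tested members, with black circles and 95% intervals from edgeR and orange diamonds for the value after removal of the trend on GC content and length. UBD is drawn at its fitted value, which is no bound, UBE2L6 and UBA6 passed both thresholds with the dashed lines marking the fold threshold, and UBA6 moved from -1.03 to -0.35 with the trend removed.

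ISG15 and USP18 showed the same order of the stimulated libraries, with replicate 1 above replicate 2, and so did UBD and UBA7, while the other 4 tested members showed the reverse. Over all tested genes replicate 1 was higher in 49.9%. Among the 11 tested genes of the IFNγ check replicate 1 was higher in 9, against 4 at 0 h. Whether the libraries differed in their response to IFNγ was not tested.

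Levels per length place the members on 1 scale. At 0 h the order in CPM per kb of exon was UBE2Z (37.3), ISG15 (8.94), UBE2L6 (7.04), UBA6 (5.12), UBA7 (1.45), HERC6 (0.64), USP18 (0.52) and HERC5 (0.13), with UBD at 0. No neighbors in this order overlapped between libraries. After IFNγ the order was UBE2Z (56.0), UBE2L6 (21.3), ISG15 (13.6), UBD (2.87), UBA6 (2.51), UBA7 (1.48), USP18 (1.19), HERC6 (0.71) and HERC5 (0.15). UBE2L6 had passed ISG15 and USP18 had passed HERC6, whereas UBD and UBA6 overlapped, as did UBA7 and USP18, and the first of these pairs changed places with the longest transcript as the length. The place of UBD is also uncertain because its exons overlap those of OR2I1P and GABBR1. For scale, UBA1, the main ubiquitin E1, stood at 43.0 and 48.5 CPM per kb before and after.

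Ratios within a library do not depend on how libraries are scaled. The ratio of UBE2L6 to UBE2L3, its closest relative and an E2 for ubiquitin, was 0.408 and 0.449 per length at 0 h and 1.21 and 1.12 after IFNγ. The ISG15 E2 thus went from below to above its ubiquitin counterpart in both libraries, with a mean ratio that was 2.71-fold higher. The ratio of UBA7 to UBA6 was 0.283 in both 0 h libraries and 0.724 and 0.462 after IFNγ. This ratio carries the dependence of UBA6 on GC content, since the log2 fold changes of UBA7 and UBA6 were -0.17 and -0.35 with the trend removed.

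The ratio of the ISG15 E2 to the FAT10 E2, UBE2L6 to UBE2Z, was 0.169 and 0.206 at 0 h and 0.392 and 0.369 after IFNγ. ISG15 to USP18, the modifier to its protease, went from 18.0 and 16.2 to 10.8 and 12.3 without overlap. HERC5 to HERC6 overlapped, at 0.249 and 0.140 before and 0.173 and 0.243 after. UBD reached 0.201 and 0.226 of the level of ISG15 per length in the stimulated libraries. The exons of UBD overlap those of OR2I1P and GABBR1, so its level and this ratio are uncertain.

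**Figure D3:**
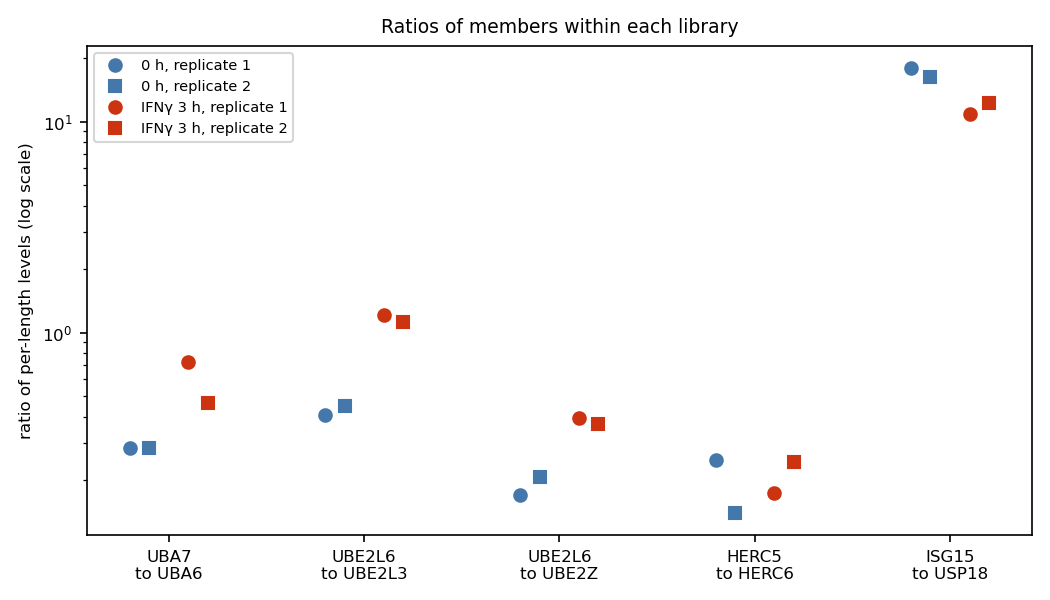
Ratio of per-length levels of 2 genes within each library (vertical axis, log scale) for 5 pairs, in 0 h (blue) and IFNγ (red) libraries with circles for replicate 1 and squares for replicate 2. UBE2L6 went from 0.408 and 0.449 to 1.21 and 1.12 of UBE2L3, the ratio of UBA7 to UBA6 was above its 0 h value of 0.283 in both IFNγ libraries with no correction for GC content, the ratio of ISG15 to USP18 was lower after IFNγ, and the ratio of HERC5 to HERC6 overlapped between the groups.

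Each enzyme was also set within its family. For comparison, 2.88% of all tested genes were called higher and 4.4% lower. Of the 10 E1 enzymes and subunits, all tested, 1 was called, UBA6, whose log2 fold change was the lowest, and the median was -0.37. UBA7 ranked 3 of 10. MOCS3, the activating enzyme of URM1, ranked first at 0.79 (edgeR adjusted p = 0.00961), below the fold threshold. Other values were UBA1 at 0.17, SAE1 at 0.02, NAE1 at -0.35, UBA3 at -0.39, ATG7 at -0.42 and UBA2 at -0.45, and none of these was called. With the trend on GC content and length removed the median of the family was -0.14, UBA6 was not called and ranked 9 of 10 with ATG7 below it at -0.48, UBA7 ranked 7, and UBA1 and SAE1 turned to -0.03 and -0.09.

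Of 34 E2 genes 33 were tested and 1 was called, UBE2L6, which had the highest log2 fold change of all of them. The median was 0.22, and 26 of the 33 values were positive, against 49.4% of all tested genes. UBE2Z ranked 5 of 33. UBE2J2, an E2 of the endoplasmic reticulum named here after its value was seen, ranked next after UBE2L6 at 0.95 and did not pass the fold threshold. With the GC and length trend removed the median was 0.40 and UBE2L6 was still highest at 1.38, but 2 genes were called higher and UBE2A, also named after its value was seen, stood next at 1.07.

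Of the 6 HERC ligases 5 were tested, with a median of -0.50. HERC6 (0.13) and HERC3 (0.14) had positive values, HERC1 (-0.77) and HERC2 (-0.50) negative ones, and HERC4 was called lower at -1.10 (edgeR adjusted p = 0.00715), a value that was -0.68 with the GC and length trend removed. Of 49 ubiquitin-specific proteases with a row 45 were tested, and their median was -0.36 (-0.11 with the trend removed). Of the 45, 2 were called higher and 4 lower, against 2.88% and 4.4% of all tested genes. USP18 had the second highest log2 fold change among them. USP38 at 1.56 (edgeR adjusted p = 0.00126) and USP42 at 1.09 were called higher, and USP34 (-1.18), USP37 (-1.04), USP45 (-1.03) and USP53 (-1.53) were called lower. With the GC and length trend removed 0 were called lower, these 4 values being -0.67, -0.56, -0.52 and -0.94, and 3 were called higher, USP38 at 1.97, USP42 at 1.00 and USP18 at 1.32.

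**Figure D4:**
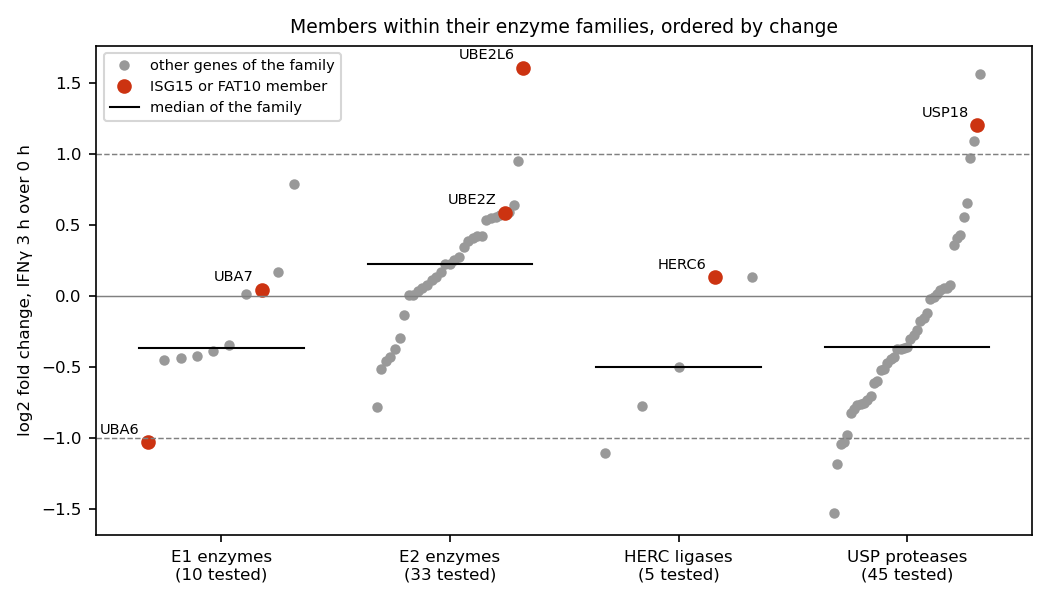
Log2 fold change of IFNγ at 3 h over 0 h (vertical axis) for each tested gene of 4 enzyme families, ordered within each family, with members in red, other genes in gray, a black line at the median of the family and dashed lines at the fold threshold. UBE2L6 stands at the top of the 33 E2 enzymes, UBA6 at the bottom of the 10 E1 enzymes (9 of 10 with the GC and length trend removed) and USP18 second among 45 proteases, while UBA7 and HERC6 lie near 0.

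Genes that work beside the members were listed as well. Of 8 tied to ISG15, 7 were tested and edgeR and DESeq2 each called 0, with 1 at an unadjusted edgeR p under 0.05, against 35.4% of all tested genes, and a median log2 fold change of 0.17. TRIM25, a ligase for ISG15 and for ubiquitin, had 1249, 842, 2021 and 1405 counts, with both stimulated libraries higher in CPM as well, and a log2 fold change of 0.70 (SE 0.108, edgeR adjusted p = 0.00592), below the fold threshold. ARIH1, another ISG15 ligase, was at -0.21, UBE2L3 at 0.17, and UBE2E1, an E2 that itself carries ISG15, at 0.06. IFNAR2, the receptor chain that USP18 binds, was at 0.39, STAT2, its partner there, at 0.47, and ITGAL, part of a receptor for secreted ISG15, at -0.93. With the GC and length trend removed the median was 0.45, ARIH1 turned to 0.52 and UBE2L3 to -0.01, and IFNAR2 was at 0.71.

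Of 6 genes tied to FAT10 edgeR and DESeq2 each called 0, with 2 at an unadjusted edgeR p under 0.05, a share close to the 35.4% of all tested genes, and a median of 0.02. SQSTM1, an autophagy receptor that binds FAT10, had a log2 fold change of 0.82 (SE 0.119, edgeR adjusted p = 0.00466), below the fold threshold. NUB1, which speeds the degradation of FAT10 and its conjugates, was at 0.18, PSMD4, a proteasome subunit that receives them, at 0.12, and HDAC6, which carries them to aggresomes, at -0.07. MAD2L1, a mitotic checkpoint protein bound by FAT10, was at -0.32. BIRC6, a giant ligase that can take ubiquitin from UBA6, was at -0.89 (edgeR adjusted p = 0.0805). With the GC and length trend removed MAD2L1 turned to 0.11 and PSMD4 to -0.07, and BIRC6 was at -0.36.

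UBB, which encodes polyubiquitin, was at 0.03, and RPS27A, which encodes ubiquitin fused to a ribosomal protein, was at -0.18, and neither was called. UBB turned to -0.10 with the GC and length trend removed. Ubiquitin coding sequences are nearly identical between genes, so reads could be divided among them in uncertain ways.

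To place ISG15 and USP18 among other genes known from the antiviral response to type I interferon, 27 such genes were listed, of which 20 were tested. Of these edgeR called 4 higher and 0 lower, against 2.88% and 4.4% of all tested genes, and DESeq2 called 3 higher and 0 lower. At an unadjusted edgeR p under 0.05 there were 8, against 35.4% of all tested genes. The median log2 fold change was 0.49, against -0.01 over all tested genes. IFIT2 was at 1.67, IFIT3 at 1.74 and IFIT5 at 4.05, and CMPK2 had 0 counts at 0 h and a mean of 1.43 CPM after IFNγ. CMPK2 had at most 14 counts in a library and, like UBD, passed the filter on low counts through its IFNγ libraries alone. IFIT5 had 5 and 9 counts at 0 h and also needed its IFNγ libraries to pass. The calls of CMPK2 and IFIT5 are therefore descriptions and no independent support. IFNB1, IFNL2 and IFNL3 had 0 counts in all libraries and IFNL1, another interferon gene, had 1 count in all.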

How the data were processed

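RNA from 4 Caco-2 libraries, 2 per group, had been extracted with a mirVana kit and prepared with a TruSeq kit. The authors deposited 1 table of raw read counts per Ensembl gene, and the submitters' processing notes name HISAT 0.5.1 and HTSeq 0.6.1p1. The genome build, annotation and strand setting are not given in the sources used here. Gene positions, exon overlaps and lengths are from GENCODE 44 on GRCh37, and symbols were paired with 36212 of the 37515 identifiers.

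Counts were filtered with edgeR's filterByExpr, scaled by TMM and tested with edgeR 4.0.16 (glmQLFit and glmQLFTest, R 4.3.3), with Benjamini-Hochberg adjustment over all 14820 tested genes. A call needed an adjusted p under 0.05 and a log2 fold change above 1 in either direction. The code was tested on simulated data. Levels per length divided TMM-scaled CPM by the union of exons. Alternatives were other scalings, filters and thresholds, glmTreat, DESeq2 1.42.0, a replicate block, a loess trend on GC content and length, and leaving out each library. Floors are 3 counts, and intervals cover 95%.

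The members and lists were chosen with earlier results of these data known. Named were all members, every gene tied to ISG15 or FAT10, all ubiquitin, E1 and HERC genes, called genes of the other lists, genes that overlap or neighbor UBD and USP18, and the 3 genes most like UBD and ISG15 by the distance of centered log2 CPM (prior count 2). Some genes that this rule names are not reported here.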

Additional observations from a re-analysis of the deposited data

How the results depend on the processing

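Of the 8 tested members, UBE2L6, UBE2Z, ISG15 and HERC6 kept the direction of their log2 fold change and their call, or lack of one, under 14 alternatives each, and UBD under the 12 that gave it a value. These alternatives kept both thresholds and tested a difference from 0. They leave out changed thresholds and glmTreat, under which UBE2L6 was not called. UBA7 reversed to -0.17 with the GC and length trend removed, to -0.15 with that trend and the replicate block, to -0.28 without IFNγ replicate 1 and to -0.02 without unstimulated replicate 1 (range without single libraries -0.28 to 0.26), and it was called in none of these. Members called higher numbered 2. They numbered 1 with DESeq2, whose default filtering left 2874 genes including UBD and USP18 without an adjusted p, and 1 with glmTreat, and 2 to 3 without single libraries. Members called lower numbered 1, and 0 with upper quartile scaling, with the trend removed (with or without the block) and with glmTreat, and 0 to 1 without single libraries. For all genes the counts of 427 higher and 652 lower became 67 and 46 with glmTreat and 1337 and 1626 with no fold threshold. The lower count was 301 with the trend removed and 382 at an adjusted p under 0.01. Without single libraries the higher count was 339 to 455 and the lower count 554 to 1112, the last without IFNγ replicate 1, where the lone IFNγ library was assumed to vary like the others. The causes were not tested, beyond the smaller number of libraries and the stricter thresholds themselves. Same-numbered libraries deviated from their group means together (r = 0.415 across genes for 2 pairs), but the labels do not say that a number marks a shared batch, so the pairing is unknown. With the replicate block 3 members were called higher and 1 lower, USP18 being added (edgeR adjusted p = 0.0201), ISG15 had an adjusted p of 0.0414 at a log2 fold change of 0.62, and 492 and 896 genes were called in all. Low counts limit what can be said of UBD (at most 29 in a library), HERC5 (at most 8) and, at 0 h, USP18 (at most 21).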

Other observations

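The other ubiquitin-like modifier systems, listed for comparison, held 1 called gene. Of 12 tested genes of the SUMO system, SENP7, a SUMO protease, was called lower, from a mean of 31.3 CPM at 0 h to 10.9 CPM after IFNγ (log2 fold change -1.49, edgeR adjusted p = 0.0157), and the median was 0.01. SENP7 was not called with the GC and length trend removed, at -0.96, nor with glmTreat or at an adjusted p under 0.01. By edgeR and by DESeq2, 0 were called of 9 tested genes of the NEDD8 system (median -0.07), 8 of the UFM1 system (median -0.18), 14 of the autophagy conjugation systems of ATG12 and LC3 (median -0.09) and 3 of the URM1 system (median 0.53). At an unadjusted edgeR p under 0.05 these 4 systems held 3, 3, 8 and 2 genes, against 35.4% of all tested genes. At an adjusted p under 0.05 with no fold threshold they held 1, 0, 3 and 1 genes with a higher level and 1, 1, 1 and 0 with a lower level. With the GC and length trend removed the medians of the NEDD8 and autophagy systems became 0.02 and 0.10, so no direction is given for them.

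The genes whose centered log2 CPM over the 4 libraries lay closest to those of UBD were CYP1A1, a xenobiotic-metabolizing enzyme of the aryl hydrocarbon receptor response, BNIP5 and TRIM29, at distances of 0.286, 0.364 and 0.395. CYP1A1 had 448 and 262 counts at 0 h and 4563 and 3013 after IFNγ. The prior count of 2 draws the 0 libraries of UBD toward the others, so these distances rest on shrunken values of UBD. The genes closest to ISG15 included RASA2 and PEBP4, at distances of 0.0562 and 0.0651, and RASA2 had 186, 122, 310 and 167 counts. These are descriptions over 4 libraries.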
